A study of Rattus norvegicus with 8 samples.

Results

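Integrins and adhesion molecules were examined in NR8383 cells, a rat alveolar macrophage line established from lung lavage and grown as a mixture of adherent and floating cells. The group holds 10 genes, the integrin subunits Itgam, Itgax, Itgal, Itga4, Itga5, Itgb1 and Itgb2 and the adhesion molecules Icam1, Pecam1 and Cd44. Their probes were found on the array by a rat RefSeq accession of one of these genes. That gave 12 probes for 9 of the 10 genes, and 8 of the 13460 genes that could be tested were members. Itgax, for which no probe with a matching accession was found, was not analysed here, and the probe of Itgal was not well above background on any of the 8 arrays.

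Cells had been exposed to ZnO for 4 h at 16 µg/mL (4 arrays, cultures described as having 200 passages) or at 4 µg/mL (4 arrays, cultures described as having 20 passages). The series design calls the samples of a condition biological replicates. Untreated cells were not analysed here, so every difference below is between the higher and the lower dose and none is a response to ZnO as such. The 4 arrays of a dose shared one slide and one scan, and no slide held both doses. In every result below, the dose therefore cannot be told apart from the slide, the scan or the passage number. Levels are log2 processed signals minus the 75th percentile of the same array, differences are ZnO 16 minus ZnO 4 on that log2 scale with their standard error (SE), and a gene was called when its Benjamini-Hochberg adjusted p from limma over all tested genes was below 0.05.

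Integrins are receptors made of an alpha and a beta chain that span the cell membrane, bind matrix proteins or counter-receptors on other cells, and link them to the actin cytoskeleton. In macrophages the beta2 chain pairs with the alpha chains of Itgam (giving Mac-1, or complement receptor 3), Itgal (LFA-1) and Itgax, and the beta1 chain pairs with those of Itga4 and Itga5, which bind fibronectin. Icam1 is a counter-receptor of the beta2 integrins and is induced by inflammatory signals in many cells, Pecam1 is a receptor of leukocytes, platelets and endothelial cells that binds itself, and Cd44 is the main receptor for hyaluronan.

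Of the 8 members tested, 2 were higher in ZnO 16 cells (Icam1 and Itga5), 4 were lower (Pecam1, Itgam, Itgb2 and Cd44) and Itga4 and Itgb1 were not called. Over all genes tested, 41.7% were called in either direction, 19.8% higher and 21.9% lower. The values of the doses did not overlap for 6 of the 8 members, against 39.9% of all genes tested. The median difference of the 8 members was -0.16, and their median absolute difference was 0.50, beside 0.00 and 0.47 over all genes tested. The 2 members that moved by more than 1 on the log2 scale were Icam1 and Pecam1, a size that 20.3% of all genes reached.

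**Figure D1:**
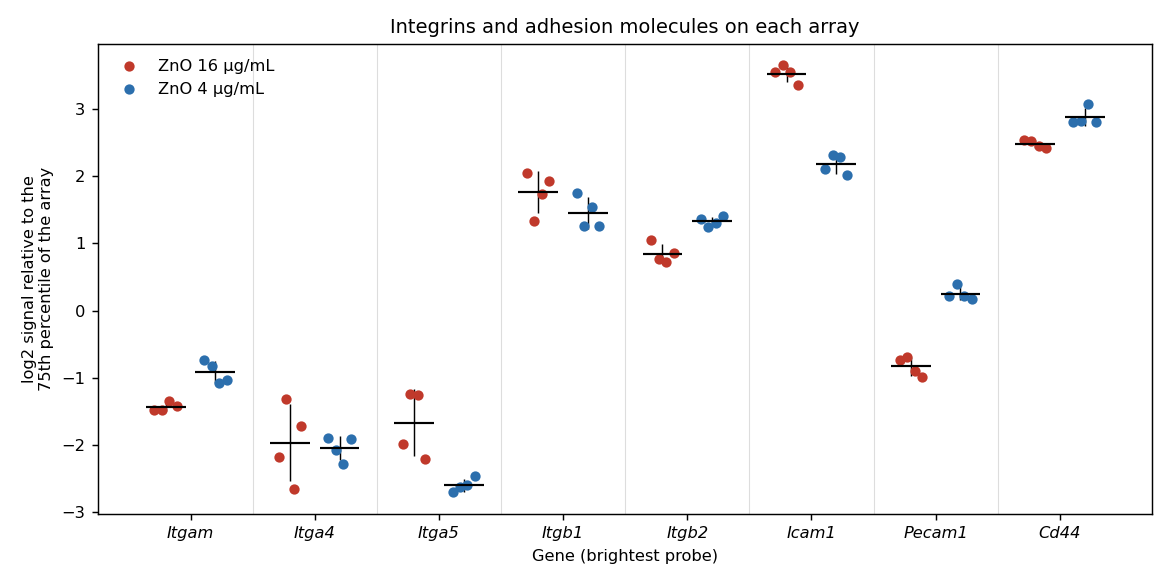
Level of each tested member on each array, as log2 signal relative to the 75th percentile of that array, from the brightest probe of the gene. Red points are the 4 ZnO 16 arrays and blue points the 4 ZnO 4 arrays, horizontal lines are means and vertical lines SD; the doses are apart for Itgam, Itga5, Itgb2, Icam1, Pecam1 and Cd44 and overlap for Itga4 and Itgb1.

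The sequences before the transcription start are shown for Icam1 and Itga5 because these were the members called higher. They come from RefSeq on the build GRCr8, which held 7 of the 10 members (Itgam, Itgax, Itga4, Itga5, Itgb1, Icam1 and Cd44), and each runs 5′ to 3′ on the strand of the gene over the 250 bases that end at the start site. Icam1 lies on the plus strand at chr8:27829595-27829844 and Itga5 on the minus strand at chr7:136381306-136381555. Capitals mark matches to 6 motifs searched on both strands.
Icam1: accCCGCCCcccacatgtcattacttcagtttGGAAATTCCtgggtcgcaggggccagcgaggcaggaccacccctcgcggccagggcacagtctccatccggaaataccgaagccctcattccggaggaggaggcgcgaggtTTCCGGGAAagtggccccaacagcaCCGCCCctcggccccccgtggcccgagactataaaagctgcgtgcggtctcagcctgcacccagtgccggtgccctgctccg
Itga5: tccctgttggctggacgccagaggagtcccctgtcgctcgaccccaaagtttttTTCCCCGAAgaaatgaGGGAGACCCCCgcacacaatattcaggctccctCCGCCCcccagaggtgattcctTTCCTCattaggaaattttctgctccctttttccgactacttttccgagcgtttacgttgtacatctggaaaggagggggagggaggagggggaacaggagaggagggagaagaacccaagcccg

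The motifs were the NF-kB consensus, an NF-kB variant GGAANTTCC, the AP-1 motif TGANTCA, the STAT motif TTCNNNGAA, the PU.1 core GAGGAA and the Sp1 core GGGCGG. In the Icam1 window the NF-kB variant matched at -218 from the start site, the STAT motif at -107 and the Sp1 core, as its complement, at -247 and -82. In the Itga5 window the NF-kB consensus matched at -180 and, overlapping it, at -179, the STAT motif at -196, the Sp1 core at -147 and the PU.1 core at -125, the last 2 as their complements. Over the 33469 promoter windows of the same length, 8.86% held the NF-kB consensus, 0.669% the NF-kB variant, 6.34% the AP-1 motif, 7.67% the STAT motif, 23.3% the PU.1 core and 30.5% the Sp1 core. Among the 7 members with a window, 1 held the NF-kB consensus, 1 the variant, 1 the AP-1 motif, 3 the STAT motif, 3 the PU.1 core and 4 the Sp1 core. These are matches of letters and do not show that a factor was bound.

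Icam1 had the largest rise of the 8. Its probe (A_43_P15253) read 3.54, 3.64, 3.54 and 3.35 on the ZnO 16 arrays, against 2.10, 2.31, 2.28 and 2.01 on the ZnO 4 arrays. Every ZnO 16 array was more than 1 unit above every ZnO 4 array. The means were 3.52 ± 0.12 in ZnO 16 cells and 2.17 ± 0.14 in ZnO 4 cells (SD, n = 4 each), a difference of 1.35 (SE 0.12, 95% interval 1.09 to 1.61, adjusted p = 1.43e-05 by limma), or 2.55-fold. Among all tested genes that difference stood at the 95.8th percentile. The rise depends on how arrays were put on one scale. Without any scaling, the processed signals were 4368, 1885, 2214 and 3894 on the ZnO 16 arrays and 2210, 1549, 2318 and 1723 on the ZnO 4 arrays, and those overlap. The difference was then 0.59 (adjusted p = 0.183), and 0.54 (adjusted p = 0.199) with scaling to the spike-in RNAs. Under these settings the median of all genes fell by 0.75 and by 0.80 on the log2 scale, and Icam1 was higher relative to that median by 1.35 under both.

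Itga5, the alpha chain of the classical fibronectin receptor, was the other member called higher. Its probe (A_42_P783301) read -1.98, -1.24, -1.25 and -2.21 on the ZnO 16 arrays, against -2.70, -2.62, -2.60 and -2.47 on the ZnO 4 arrays. The doses did not overlap, but the ZnO 16 values were spread widely, with replicates 2 and 3 well above replicates 1 and 4. The means were -1.67 ± 0.50 in ZnO 16 cells and -2.60 ± 0.10 in ZnO 4 cells (SD, n = 4 each), a difference of 0.93 (SE 0.24, 95% interval 0.39 to 1.46, adjusted p = 0.0116 by limma), or 1.90-fold. ZnO 16 replicates 2 and 3 were also the dimmest arrays, with 75th percentiles of 7.24 and 7.57 (log2 signal) against 8.29 to 9.01 on the other 6 arrays. Without both of them, an alternative chosen after seeing the data, the difference was 0.50 (adjusted p = 0.0735) and the call was lost. The part of array brightness in the rise was not tested otherwise. The difference was 0.17 (adjusted p = 0.742) without scaling and 0.12 (adjusted p = 0.798) with spike-in scaling.

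The beta2 integrin Mac-1 was represented by both chains. For its alpha chain, Itgam, the brighter of the 2 probes (A_44_P1161690) read -1.48, -1.48, -1.35 and -1.42 on the ZnO 16 arrays, against -0.74, -0.82, -1.08 and -1.03 on the ZnO 4 arrays. Each ZnO 16 array was below each ZnO 4 array, and the means were -1.43 ± 0.06 in ZnO 16 cells and -0.92 ± 0.16 in ZnO 4 cells (SD, n = 4 each). The difference was -0.52 (SE 0.14, 95% interval -0.83 to -0.21, adjusted p = 0.0142 by limma), or 1.43-fold lower. The dimmer Itgam probe (A_43_P15993) did not show it. That probe read -2.64, -2.86, -2.60 and -3.00 on the ZnO 16 arrays and -2.79, -2.54, -3.09 and -2.23 on the ZnO 4 arrays, which overlap, with a difference of -0.11 (SE 0.22). In the fit of every probe by itself, where 41.7% of probes were called, its adjusted p was 0.711. Averaging both probes gave -0.31 (adjusted p = 0.143), so the Itgam call rests on one probe; it was also lost with median scaling (-0.35, adjusted p = 0.167), with another background correction (normexp, -0.26, adjusted p = 0.139) and without a filter on dim probes (-0.52, adjusted p = 0.0600).

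Itgb2, the beta chain shared by Mac-1, LFA-1 and the Itgax receptor, was lower as well. Its single probe (A_42_P591344) read 1.05, 0.76, 0.72 and 0.86 on the ZnO 16 arrays, against 1.36, 1.24, 1.30 and 1.40 on the ZnO 4 arrays, with no overlap. The means were 0.85 ± 0.15 in ZnO 16 cells and 1.33 ± 0.07 in ZnO 4 cells (SD, n = 4 each), a difference of -0.48 (SE 0.12, 95% interval -0.74 to -0.22, adjusted p = 0.00849 by limma), or 1.39-fold lower. The call was lost with median scaling (-0.31, adjusted p = 0.228) and without the 2 dimmest arrays (-0.37, adjusted p = 0.0514). Itgal, the alpha chain of LFA-1, read -5.69, -5.93, -6.03 and -5.79 on the ZnO 16 arrays and -6.68, -5.83, -6.50 and -5.33 on the ZnO 4 arrays. Since it was not well above background on any of the 8 arrays, these values set no level and no fold is given.

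The beta1 integrin chains were not called apart from Itga5. Itgb1, which encodes the beta chain with the largest number of alpha partners, had a probe spotted 10 times on each array (A_44_P1159924). It read 2.05, 1.34, 1.74 and 1.92 on the ZnO 16 arrays, against 1.75, 1.25, 1.53 and 1.26 on the ZnO 4 arrays. Replicate 2 was the lowest array of its dose under ZnO 16 and shared the lowest place with replicate 4 under ZnO 4, and the doses overlapped. The means were 1.76 ± 0.31 in ZnO 16 cells and 1.45 ± 0.24 in ZnO 4 cells (SD, n = 4 each), a difference of 0.31 (SE 0.18, 95% interval -0.08 to 0.71, adjusted p = 0.181 by limma). A second probe, spotted 2 times (A_44_P507943), gave 0.68, -0.23, 0.27 and 0.82 on the ZnO 16 arrays and 0.06, -0.31, -0.05 and 0.35 on the ZnO 4 arrays, a difference of 0.37 (SE 0.23, adjusted p = 0.215 over probes). An interval that reaches 0.71 leaves room for a rise, and without ZnO 16 replicate 2 the difference was 0.45 (adjusted p = 0.0494).

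The repeated spots of the brighter Itgb1 probe also show how far one place on an array can move a value. The SD between its spots on one array had a median of 0.10 over the 8 arrays, but was 0.39 on ZnO 16 replicate 4, and on ZnO 4 replicate 4 the lowest spot read -1.16 beside an array mean of 1.26. Both of these arrays have an area of low signal, and 2 of the 10 spots lay in it on each. Without those spots the array means were 2.06 on ZnO 16 replicate 4 and 1.77 on ZnO 4 replicate 4, and the Itgb1 difference was 0.22 (adjusted p = 0.357). Itga4, the alpha chain of VLA-4, had one probe (A_64_P074998), which read -2.17, -1.32, -2.65 and -1.72 on the ZnO 16 arrays and -1.90, -2.07, -2.28 and -1.91 on the ZnO 4 arrays. The ZnO 16 values lie on both sides of the ZnO 4 values, and the difference was 0.07 (SE 0.27, 95% interval -0.52 to 0.67, adjusted p = 0.844 by limma). Without scaling the uncalled differences of Itga4 and Itgb1 turned negative, to -0.68 and -0.44.

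Whether the 2 chains of one receptor moved apart was asked from the difference between alpha and beta probe on the same array, a quantity that scaling each array by one factor does not move. Only its change between doses can be read, since 2 probes differ in brightness for equal RNA. Of 5 receptor pairs, 3 had both chains measured. The Itgam minus Itgb2 difference averaged -2.28 ± 0.19 in ZnO 16 cells and -2.24 ± 0.19 in ZnO 4 cells (SD, n = 4 each), a change of -0.04 (two-sided exact permutation test, p = 0.80, adjusted p = 0.80 over the 3 pairs). Itga5 minus Itgb1 averaged -3.43 ± 0.77 in ZnO 16 cells and -4.04 ± 0.32 in ZnO 4 cells (SD, n = 4 each), a change of 0.61 (exact p = 0.229, adjusted p = 0.686). Itga4 minus Itgb1 changed by -0.24 (exact p = 0.629, adjusted p = 0.80). The smallest p that 4 arrays against 4 allow is 0.0286, which adjusts to 0.0857 if only 1 of the 3 pairs reaches it, so a single pair could not have been called and these p-values do not show that the chains moved together. With the dimmer Itgam probe the first change was 0.36 (exact p = 0.171).

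Pecam1 had the largest fall of the 8. Its probe (A_42_P826191) read -0.74, -0.69, -0.90 and -0.99 on the ZnO 16 arrays, against 0.22, 0.39, 0.22 and 0.17 on the ZnO 4 arrays. The doses were far apart, with every ZnO 16 array below the 75th percentile of its array and every ZnO 4 array above it. The means were -0.83 ± 0.14 in ZnO 16 cells and 0.25 ± 0.09 in ZnO 4 cells (SD, n = 4 each), a difference of -1.08 (SE 0.13, 95% interval -1.36 to -0.80, adjusted p = 0.000117 by limma), or 2.12-fold lower. The unscaled signals, 224, 93.5, 102 and 192 on the ZnO 16 arrays and 602, 409, 559 and 482 on the ZnO 4 arrays, did not overlap. Pecam1 was called lower under all 22 other settings run, with differences from -1.89 (spike-in scaling) to -0.91 (median scaling).

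Pecam1 is also a marker of endothelial cells, so the 5 endothelial markers listed beside it are given here. Vwf and Cdh5 were well above background on all 8 arrays, and Kdr, Tek and Cldn5 on none. Vwf averaged 2.37 ± 0.25 in ZnO 16 cells and 3.32 ± 0.17 in ZnO 4 cells (SD, n = 4 each), a difference of -0.95 (adjusted p = 0.000717 by limma), which was -0.03 with the mean of its probes. Cdh5 differed by -0.65 (adjusted p = 0.146). The linear levels of the 5 markers, each relative to the 75th percentile, summed to 4.60 to 6.76 on the ZnO 16 arrays and to 9.26 to 11.98 on the ZnO 4 arrays. Nearly all of that sum is one Vwf probe, and the other 4 markers summed to 0.082 to 0.188 on the ZnO 16 arrays and to 0.128 to 0.202 on the ZnO 4 arrays, which overlap. The part of other cells in the Pecam1 fall was not tested, and in bulk RNA fewer cells of a type and less RNA per cell cannot be told apart. Of 12 macrophage markers, 10 were well above background on all 8 arrays, and Marco and Adgre1 on none. Spi1, a macrophage transcription factor, was higher in ZnO 16 cells (0.81, adjusted p = 0.00653) but not without scaling (0.06, adjusted p = 0.911) or with spike-in scaling (0.00, adjusted p = 0.994). Cd68, a lysosomal membrane protein, was lower (-1.74, adjusted p = 2.10e-05), and the other 8 macrophage markers tested were not called.

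Cd44 was called lower in ZnO 16 cells. Its brighter probe, spotted 10 times (A_64_P080817), read 2.54, 2.52, 2.44 and 2.42 on the ZnO 16 arrays, against 2.80, 2.81, 3.07 and 2.81 on the ZnO 4 arrays. There was no overlap, and the SD between its spots on one array had a median of 0.07. The means were 2.48 ± 0.06 in ZnO 16 cells and 2.87 ± 0.13 in ZnO 4 cells (SD, n = 4 each), a difference of -0.39 (SE 0.11, 95% interval -0.63 to -0.15, adjusted p = 0.0156 by limma), or 1.31-fold lower. The second probe (A_44_P1164526) read 0.38, 0.50, 0.32 and 0.39 on the ZnO 16 arrays and 0.60, 0.70, 0.83 and 0.47 on the ZnO 4 arrays, which overlap at one point, and its difference of -0.25 (SE 0.12) was not called (adjusted p = 0.119 over probes). The Cd44 call was lost with median scaling (-0.23, adjusted p = 0.346) and without a filter on dim probes (-0.39, adjusted p = 0.0568).

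**Figure D2:**
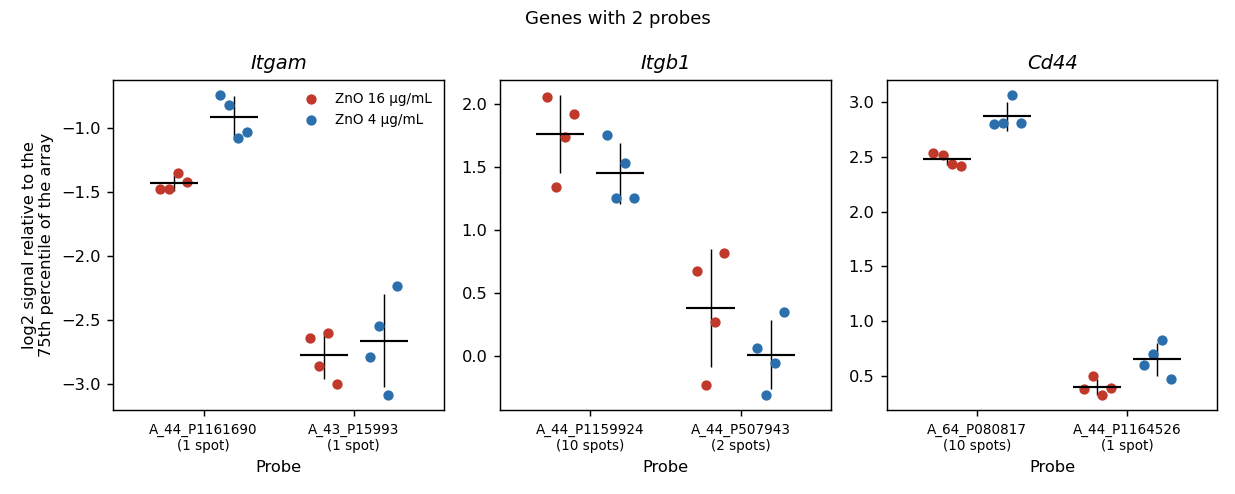
Level on each array of both probes of Itgam, Itgb1 and Cd44, as log2 signal relative to the 75th percentile of that array, with ZnO 16 (red) left of ZnO 4 (blue), mean and SD. The brighter Itgam probe separates the doses and the dimmer one does not, both Itgb1 probes overlap between doses, and both Cd44 probes are lower on average in ZnO 16 cells.

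The 3 genes with a pair of probes were compared probe against probe on each array. The change of the brighter probe minus that of the dimmer was -0.40 for Itgam (exact permutation test, p = 0.143), -0.06 for Itgb1 (exact p = 0.714) and -0.14 for Cd44 (exact p = 0.0857). Adjusted over these 3 genes, p was 0.214 for Itgam, 0.714 for Itgb1 and 0.214 for Cd44, and here too a single gene could not have gone below 0.0857. These p-values do not show that the probes of a gene moved alike, and for Itgam only one of the 2 was called.

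**Figure D3:**
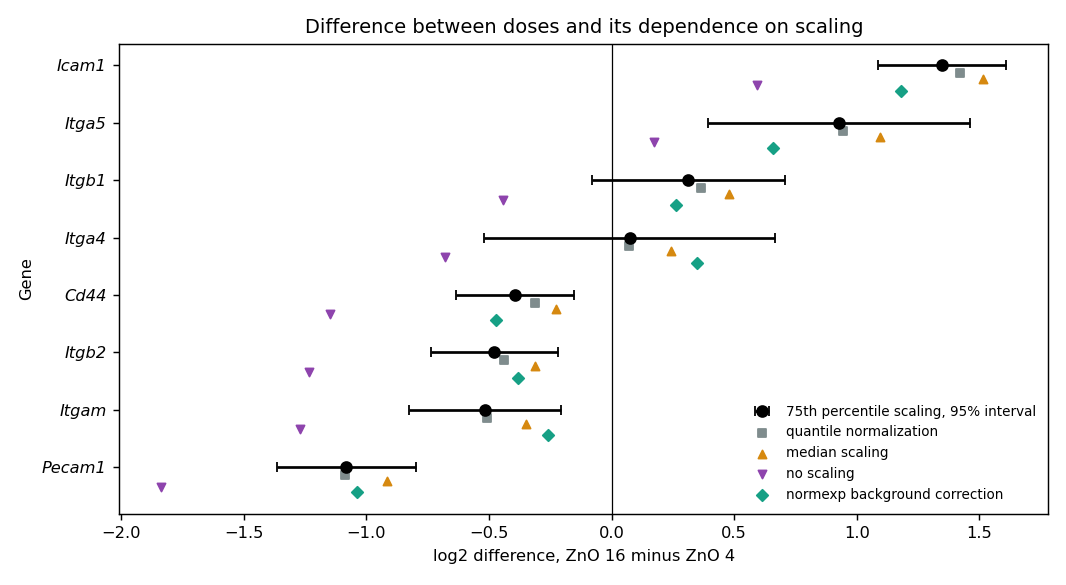
Difference of each tested member, ZnO 16 minus ZnO 4, on the log2 scale. Black points with bars are the reported values with 95% intervals, and coloured symbols the values under other scalings or background correction; without scaling (downward triangles) all values move lower, Icam1 to 0.59 and Pecam1 to -1.84.

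The choice of scale moves the balance of calls in the whole comparison, and the members with it. With scaling to the 75th percentile, 2669 genes were called higher and 2943 lower; with median scaling, which moved the median gene by 0.17, these were 3405 and 1980, and 3 members kept a call (Icam1, Itga5 and Pecam1). Without scaling 229 genes were higher and 4417 lower, with spike-in scaling 224 and 5084, and 4 members were then called under each, namely Pecam1, Itgam, Itgb2 and Cd44, all lower. With normexp 2776 genes were higher and 1996 lower. The 8 spike-in RNAs themselves differed between the slides by -0.68 to 1.62 on the reported scale, with a median of 1.17. Of these, 6 were higher on the ZnO 16 slide by 1.07 to 1.62, and 2 were lower, by -0.21 and -0.68. The Icam1 difference lies among those 6 and that of Itga5 just under them, those of Itgam, Itgb2 and Cd44 run opposite to the 6 and lie between the 2 lower ones, and that of Pecam1 lies below all 8.

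Other genes of the adhesion machinery were taken from lists, chosen with earlier results of these data known, and their counts stand beside the 41.7% called among all genes. Of 13 other integrin alpha chains, 7 had a probe and 2 were tested. Itgae, the alpha chain that binds E-cadherin on lymphocytes of epithelia, read -1.52, -1.85, -1.12 and -2.28 on the ZnO 16 arrays, against -2.87, -3.29, -3.07 and -4.99 on the ZnO 4 arrays, and was called higher (1.86, SE 0.44, adjusted p = 0.00752 by limma). Its spot lay in the low-signal areas of both arrays numbered 4, and without those spots the difference was 1.58 (adjusted p = 0.00111); it was not called without scaling (1.11, adjusted p = 0.0898) or with spike-in scaling (1.06, adjusted p = 0.0932). Of 7 genes listed as markers of T or NK cells, Cd4 and Nkg7 were well above background on all 8 arrays and Cd3e and Cd8a on none. Cd3d was well above background on 7 arrays, Cd3g on 2 and Cd5 on 1. Cd3d was lower in ZnO 16 cells (-1.22, adjusted p = 0.00517) but not with normexp (0.03, adjusted p = 0.934). The list summed to 1.28 to 1.96 on the ZnO 16 arrays and to 1.24 to 2.08 on the ZnO 4 arrays. Most of that sum came from Nkg7 and Cd4, so it was not taken as a measure of T or NK cells. The part of such cells in the Itgae rise was not tested. Itga6 was not called (-0.36), and of 6 other beta chains Itgb3 (0.32) and Itgb4 (-0.09) were tested and not called.

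Of 40 genes that activate integrins or join them to the cytoskeleton, 29 were tested, 7 were higher and 8 lower in ZnO 16 cells, with a median difference of 0.15. The largest rises were in Actn1, an actin cross-linking protein, and Zyx, a protein of focal adhesions. Zyx read 2.80, 3.67, 3.74 and 2.85 on the ZnO 16 arrays, against 1.47, 1.85, 1.32 and 2.12 on the ZnO 4 arrays (1.57, SE 0.26, adjusted p = 0.000942 by limma), and was not called without scaling (0.82, adjusted p = 0.0580). Without ZnO 16 replicates 2 and 3, the dimmest arrays and the highest for Zyx, its difference was 1.13 (adjusted p = 0.00451). Actn1 read 0.56, 0.36, 0.47 and 0.19 on the ZnO 16 arrays, against -1.17, -0.92, -1.07 and -3.39 on the ZnO 4 arrays. The last of these spots lay in the low-signal area of that array; with it the Actn1 difference was 2.03 (SE 0.46, adjusted p = 0.00618), without it 1.45 (adjusted p = 4.23e-05), and with spike-in scaling 1.23 (adjusted p = 0.0616). The largest falls were in Itgb1bp1 (-1.43, SE 0.22, adjusted p = 0.000789), which binds the beta1 tail and restrains its activation, and Apbb1ip (-1.43, SE 0.20, adjusted p = 0.000322), the adaptor RIAM that brings talin to integrins. Apbb1ip read 1.14, 1.11, 0.36 and 0.35 on the ZnO 16 arrays, against 2.15, 2.07, 2.26 and 2.22 on the ZnO 4 arrays, and was lower under all 22 other settings, whereas the Itgb1bp1 call was lost with normexp (-0.43). The count of this list depended on the scale, with 11 higher and 3 lower under median scaling and 1 higher and 9 lower without scaling.

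Of 38 other adhesion receptors and ligands, 17 were tested, 6 were higher and 5 lower, with a median difference of 0.06. Without scaling 1 was higher and 5 lower, with spike-in scaling 1 and 6, and with median scaling 6 and 2. Plaur, the urokinase receptor, which also binds integrins and vitronectin, read 0.33, 0.74, 0.63 and 0.59 on the ZnO 16 arrays, against -1.45, -0.80, -1.62 and -1.21 on the ZnO 4 arrays. It was higher by 1.84 (SE 0.19, adjusted p = 3.98e-05 by limma) and was called under all 22 other settings. Nectin2, a junction protein and ligand of Cd226, was well above background on 4 ZnO 16 arrays and 0 ZnO 4 arrays. On ZnO 4 replicate 2 the lowest signal well above background (-3.79) exceeded Nectin2 on ZnO 16 replicates 1 and 4 (-3.82 and -4.07). Cd226 itself was well above background on 0 ZnO 16 arrays and 3 ZnO 4 arrays. On ZnO 16 replicates 2 and 3 the lowest signal well above background (-3.75 and -3.82) exceeded every ZnO 4 value of Cd226 (-4.00 to -3.85). No fold is therefore given for Nectin2 or Cd226. Nectin2 and Cd226 each entered the tests only through the dose where the signal was higher. Their calls in the reported fit (adjusted p = 0.0171 for Nectin2 and 0.0310 for Cd226) are therefore no support. Without the filter neither was called (adjusted p = 0.0713 for Nectin2 and 0.118 for Cd226), and with normexp the Cd226 difference was positive (0.16). Nectin2 was also not called without scaling (0.37, adjusted p = 0.507) or with spike-in scaling (0.32, adjusted p = 0.529). The same held with normexp (0.63, adjusted p = 0.0564) and without the 2 dimmest arrays (0.71, adjusted p = 0.128). Nectin2 was called in 16 of 21 other settings and Cd226 in 11 of 17. Alcam, an adhesion molecule of the immunoglobulin family, was lower (-1.15, adjusted p = 0.00198) and called under all 22 other settings.

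Of 21 partners of CD44 and hyaluronan genes, 7 were tested, 1 was higher and 1 lower, with a median difference of 0.11. Msn, which encodes moesin, a linker between the CD44 tail and actin, was higher by 1.52 (SE 0.27, adjusted p = 0.00162 by limma); its spot on ZnO 4 replicate 4 lay in the low-signal area, and without it the difference was 1.24 (adjusted p = 0.000573). Msn was not called without scaling (0.77, adjusted p = 0.200) or with spike-in scaling (0.71, adjusted p = 0.212). Hyal2, a hyaluronidase anchored to the membrane, read 0.01, 0.36, 0.31 and -0.51 on the ZnO 16 arrays, against 1.58, 1.43, 1.48 and 1.65 on the ZnO 4 arrays (-1.49, SE 0.19, adjusted p = 0.000176), and was lower under all 22 other settings.

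**Figure D4:**
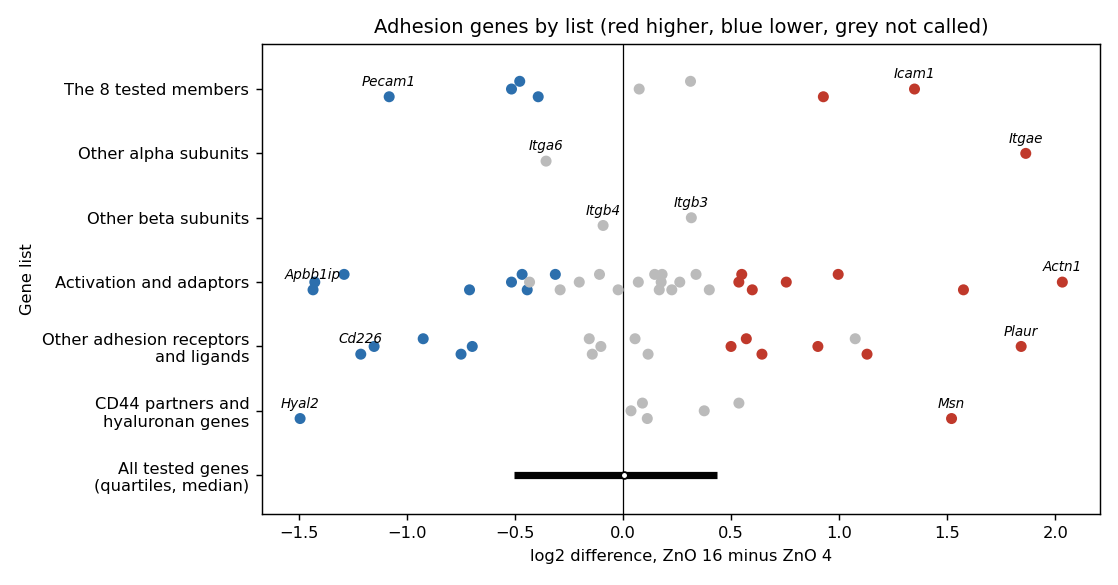
Difference, ZnO 16 minus ZnO 4, on the log2 scale for each tested gene of the members and of 5 lists of related genes. Red points were called higher, blue points lower and grey points not called, and the bottom bar gives the quartiles of all tested genes (-0.51 and 0.44) around their median of 0.00; each list but those of the integrin chains has called genes on both sides.

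Profiles over the 8 arrays were compared with those of 7853 other named genes, as the root mean square distance between values centred on each gene's mean. The nearest to Icam1 were Adgre5 (distance 0.11, difference 1.28), an adhesion receptor of leukocytes known as CD97, Chka (0.12, difference 1.40), a choline kinase, and Ngrn (0.13, difference 1.22). The nearest to Pecam1 were Pcdhga7 (0.085, difference -1.16), a protocadherin, Uqcrb (0.091, difference -0.99), a subunit of respiratory complex III, and Snrpc (0.097, difference -1.15), a protein of the U1 spliceosomal particle. Since the doses set most of each profile, genes with a similar difference and a small spread come out as near.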

How the data were processed

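The data are 8 files of scanner output from 1-colour Agilent arrays (Cy3), and the submitters' processing notes name Agilent Feature Extraction 11.0.1.1. Per the file headers, the deposited processed signal is a linear intensity after background subtraction and spatial detrending of the single array, with no scaling between arrays. The other deposited columns used are the 0 or 1 flags (a score with no unit) and the median spot and background intensities, from which the normexp alternative was made (offset 50).

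From the 62976 spots of an array, control spots were removed, and non-uniform or population-outlier spots counted as missing. Each value is the log2 of the processed signal minus the 75th percentile of its array. Repeated spots were averaged. A probe entered the tests if 3 or more of the 4 arrays of either dose had it well above background. The brightest probe stood for its gene. Gene names came from a RefSeq table of GRCr8 by accession, ignoring versions (the file headers name the older build rn4); 21109 of 45598 probes had a symbol. The fit used limma 3.58.1 in R 4.3.3 (lmFit, eBayes with trend, two-sided, Benjamini-Hochberg) on all 13460 genes, and was tested on simulated data. Between 31.5% and 39.3% of probes were above background on an array, no gene spot was saturated, and array number limits the precision. Correlations across genes, which are not independent replicates, were 0.969 to 0.986 within ZnO 16, 0.973 to 0.991 within ZnO 4 and 0.915 to 0.947 between doses.

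The members and lists were chosen with earlier results of these data known. Named beside the members are the 2 largest called differences in each direction of each list, and the 3 profiles nearest to the largest called rise and fall. Deviations of same-numbered arrays of the doses correlated by 0.25, 0.40, -0.22 and -0.03 for replicates 1 to 4. With 4 pairs this does not settle whether the arrays were paired. Other scalings, filters, rules for probes and left-out arrays were tried; leaving out the 2 dimmest arrays, or both arrays numbered 4, was added after seeing the data. For "at least N-fold", the brighter dose's mean was divided by a floor for the other dose, the mean over its arrays of the larger of the probe's own signal and the lowest signal well above background.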

Additional observations from a re-analysis of the deposited data

Results flagged for a closer look

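Over 46 groups of 4 arrays (24 of member probes and 22 of other named genes), 2 held an array that stood apart from the other 3 by Dixon's ratio, where chance flags about 1 group in 20. For the brighter Cd44 probe, ZnO 4 replicate 3 read 3.07, against 2.80 to 2.81 on the other ZnO 4 arrays (ratio 0.960). Leaving out one array at a time, the Cd44 difference lay between -0.42 and -0.33 and stayed called. For Actn1, ZnO 4 replicate 4 read -3.39, against -1.17 to -0.92 on the other ZnO 4 arrays (ratio 0.899). Its spot lay in the low-signal area of that array, and without it the difference was 1.45.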

How the results depend on the processing

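Under 22 other settings the number of genes called lay between 4311 and 5922, within 1.5 times the reported 5612. Between 3 and 7 members were called, and no called member changed direction. With median scaling 3 members were called. The replicate block, a pairing that the data left undecided (2 of 4 ZnO 16 arrays correlated best with their own number), gave 5472 genes and changed no member's call. Without the 2 dimmest arrays 4695 genes and 5 members were called, and Itgb1 was among them (0.54, adjusted p = 0.0388). Without both arrays numbered 4, 5520 genes and 6 members were called. With no filter on dim probes 39505 genes were tested, and 4744 genes and 4 of 9 members were called. Leaving out one array at a time gave 4311 to 5530 genes and 6 to 7 members, with differences of 1.29 to 1.40 for Icam1, 0.78 to 1.11 for Itga5, -0.57 to -0.46 for Itgam, -0.55 to -0.44 for Itgb2 and -1.13 to -1.03 for Pecam1. The exact tests of the alpha and beta pairs are too small to speak for stability. Over 15 settings the pair changes ranged from -0.11 to 0.16 for Itgam and Itgb2, from 0.33 to 0.95 for Itga5 and Itgb1 and from -0.59 to 0.09 for Itga4 and Itgb1. The cause of calls lost was not tested. Signal over background limits Itgal, Nectin2 and Cd226, which have no level in at least 1 dose.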
